A study of Mus musculus with 12 samples.

Results

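The major urinary protein (Mup) genes of the mouse liver were described in 12 RNA sequencing libraries. The 10 genes Mup1, Mup2, Mup3, Mup7, Mup11, Mup16, Mup17, Mup18, Mup20 and Mup21 were taken from the 41128 genes of the table by their symbols. They had been chosen by measured values of these same libraries, namely their higher values in male than in female livers, so the male against female values below are a description and carry no test. The table holds 21 genes named Mup and a number, and the other 11 are described near the end.

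Major urinary proteins are small lipocalins, secreted proteins with a barrel-shaped pocket that binds small volatile molecules. Hepatocytes secrete them into the blood, the kidney passes them into the urine, and in scent marks they bind and slowly release pheromones. Their genes lie side by side in 1 cluster, and in the liver they are a textbook example of male-biased expression that follows the pulsed secretion of growth hormone in males through the transcription factor STAT5B. Mup20 encodes darcin, a male signal that attracts females. Mup4 and Mup5 are known mainly from glands of the nose, eye and mouth rather than from the liver.

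All mice were C57BL/6, born germ-free and kept in sterile isolators until weaning at about 21 days. One part of each set of littermates stayed in the isolators (germ-free, GF), and the other was conventionalized (CV), that is, moved to cages with dirty bedding from the animal facility, which carries microbes, for 3 weeks. Livers were taken at 6 weeks of age from 3 males and 3 females in each condition, with 1 library per mouse. The labels name no engineered allele and no drug, and a conventionalized mouse is an animal colonized after weaning, not one raised with microbes from birth.

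The values are deposited read counts divided by 1 size factor per library, and whole reads could be recovered from them. Libraries held 5993619 to 15290835 reads, and 1 read was worth a value of 0.421 to 2.66. Mitochondrial ribosomal RNA took 9.36% to 16.4% of the reads in GF and 1.39% to 6.32% in CV, and 42 abundant loci (all mitochondrial genes and 5 others) took 47.2% to 74.3% in GF and 7.32% to 25.3% in CV. The tissue carried its label: 7 of the 8 hepatocyte markers sought were in the table and had a summed value of 97112 to 601883. Of 8 markers of gland epithelium, 6 were at 0 in every library, Bpifa2 was at 0 in 11 of the 12 libraries, and Amy1, which the liver also expresses, was read at 393 to 1801.

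The library labelled CV male 3 stood apart and went against its label. It had 0 reads on 4 genes of the Y chromosome (Uty, Ddx3y, Kdm5d and Eif2s3y), where the other 5 libraries labelled male had 796 to 1314, and its value of Xist, the RNA of the inactive X chromosome, was 2382, against at most 21.3 in those males. It was therefore left out of the group of CV males, which then held 2 libraries, and its values are given apart under the name CV male 3.

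The 21 Mup genes span 2194060 bases of chromosome 4 (chr4:59956804-62150863, GRCm38, GENCODE M21), on the minus strand except for Mup6. Within the 7 genes Mup1, Mup2, Mup7, Mup11, Mup16, Mup17 and Mup18 the coding sequences were 98.7% to 99.8% identical over aligned bases (median 99.1%, 21 pairs), so these are near-identical copies. Mup20 (chr4:62050234-62054158), Mup3 (chr4:62083476-62087342) and Mup21 (chr4:62147932-62150863) are protein-coding genes at 1 end of the cluster. Mup20 was 90.6% to 91.5% identical to the 7 copies, and Mup3 and Mup21 were each 86.1% to 87.1% and 86.1% to 87.0% identical to them but 96.3% identical to each other. A read can be assigned to 1 gene only where its sequence is particular to that gene. Of all 100-base stretches of the transcript, 97.1% were particular to Mup3 among all annotated transcripts, 95.5% to Mup21 and 61.2% to Mup20, against 2.66% for Mup2, 12.8% for Mup1, 12.9% for Mup7 and Mup18, 16.5% for Mup11, 19.9% for Mup16 and 40.6% for Mup17. The read length and the treatment of reads that match several genes are not given in the sources used here. The values of the 7 copies can therefore have been split or lost between them, and their sum is firmer than the single values. Reads can also have been shared with near-identical Mup genes outside the sum. In their coding sequences Mup9 was 100% identical to Mup18, and Mup10 was 98.7% to 99.6% identical to the 7 copies. The sum is therefore not the total of all near-identical copies. Mup3, Mup20 and Mup21 are read singly.

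The start regions printed here show the same grouping by sequence identity. RefSeq (GRCm38.p6) gave the region from 250 bases before to 50 bases after the start for 7 of the 10 genes. The letters TATATAA, which resemble a TATA box, are marked in capitals. The stretch from 80 bases before to 6 bases after them is shown for 3 near-identical copies and for the pair Mup3 and Mup21. These set the highly similar copies against members that are read singly. The stretches lie on the minus strand of GRCm38 at chr4:60139871-60139963 (Mup2), chr4:61595845-61595937 (Mup17), chr4:61674110-61674202 (Mup18), chr4:62087316-62087408 (Mup3) and chr4:62150837-62150929 (Mup21), around the start of the first exon.
Mup2: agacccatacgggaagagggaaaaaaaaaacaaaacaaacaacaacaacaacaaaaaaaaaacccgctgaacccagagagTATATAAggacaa
Mup17: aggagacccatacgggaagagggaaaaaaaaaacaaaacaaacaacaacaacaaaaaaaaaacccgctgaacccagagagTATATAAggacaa
Mup18: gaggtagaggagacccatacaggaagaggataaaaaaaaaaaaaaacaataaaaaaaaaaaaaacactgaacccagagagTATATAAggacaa
Mup3: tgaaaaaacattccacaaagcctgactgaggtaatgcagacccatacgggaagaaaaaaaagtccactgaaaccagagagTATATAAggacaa
Mup21: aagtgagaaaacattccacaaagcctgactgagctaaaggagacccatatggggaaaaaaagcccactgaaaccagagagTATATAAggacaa
Over aligned bases the stretches were 100% identical between Mup2 and Mup17, 90.4% and 90.7% between these and Mup18, and 92.2% between Mup3 and Mup21, but 63.3% to 72.1% between Mup3 and the 3 copies shown. The longest run made of A and C alone was 45 bases in Mup2, 42 in Mup17 and 18 in Mup18, against 8 in Mup3 and 7 in Mup21. The letters TATATAA were chosen for the search after these sequences had been seen. They began 25 to 28 bases before the RefSeq start in the 3 copies and 11 and 8 bases before it in Mup3 and Mup21. In Mup11, a near-identical copy not shown, they began 2 bases before that start, and the window of Mup7 held none. The distance therefore did not separate the copies from Mup3 and Mup21. GENCODE counts the last 27 bases of each of the 5 stretches, which include the marked letters, as first exon, so the 2 annotations place the starts differently. Whether the letters act as a TATA box was not tested. The TATATAA letters occurred, on either strand, in the RefSeq window of 6 of the 7 members and in 3.24% of the 32851 RefSeq windows of that length. Neither the STAT5 motif TTCNNNGAA, which 8.30% of all windows held, nor the C/EBP motif TTGCNNAA (10.8%) nor the letters TATAAA (13.6%) were found on either strand in the windows of the 7 members, which says only that these letters are not in these windows.

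Male livers held far more Mup RNA than female livers in both conditions. In GF livers the sum of the 7 near-identical copies was 34217, 59088 and 54956 in the males and 275, 583 and 481 in the females. In CV livers it was 70262 and 75434 in the 2 males and 381, 2320.2 and 1576 in the females, with CV male 3 at 12271. The groups of males and females did not overlap in either condition, and CV male 3 lay between them. Mean values were 49420.2 ± 13328 (SD, n = 3) against 446 ± 157 (n = 3) in GF, 111-fold, and 72848 ± 3657 (n = 2) against 1426 ± 978 (n = 3) in CV, 51.1-fold. Mup10, a near-identical copy outside this sum, had a higher mean than the sum in females, at 1738 in GF and 10134 in CV. The mean of Mup10 was 7.60-fold higher in males in GF and 2.33-fold in CV.

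Mup3 had the highest value per kilobase of exon of the 10 genes in every group, although reads of the near-identical copies can have been lost. It differed least between the sexes among the 3 genes read singly. Its values were 37843, 84056 and 56196 in GF males and 5609, 12861 and 5112 in GF females. In CV livers they were 107998 and 91644 in males and 31552, 42080.1 and 37702 in females, with CV male 3 at 39354. The lowest male was 2.94-fold above the highest female in GF and 2.18-fold in CV, and CV male 3 lay within the range of the CV females. The mean was 7.55-fold higher in males in GF and 2.69-fold in CV.

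Mup20, the gene of darcin, had a wider gap between the sexes than Mup3. GF males had 5328, 26036 and 15298, and GF females had 272, 303 and 159. CV males had 25981 and 26244, CV females had 996, 825 and 958, and CV male 3 had 963. The sexes were 63.6-fold apart in GF and 28.2-fold in CV by their means, and CV male 3 again fell among the CV females.

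Mup21 was the one member with a lower mean in CV than in GF in both sexes. Its values were 1590.3, 3477 and 3106 in GF males and 87.6, 55.9 and 32.6 in GF females. They were 1008 and 1803 in CV males, 32.8, 43.0 and 37.3 in CV females, and 46.3 in CV male 3. Males and females did not overlap, with means 46.4-fold apart in GF and 37.3-fold in CV, while the CV and GF groups of each sex did overlap.

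**Figure D1:**
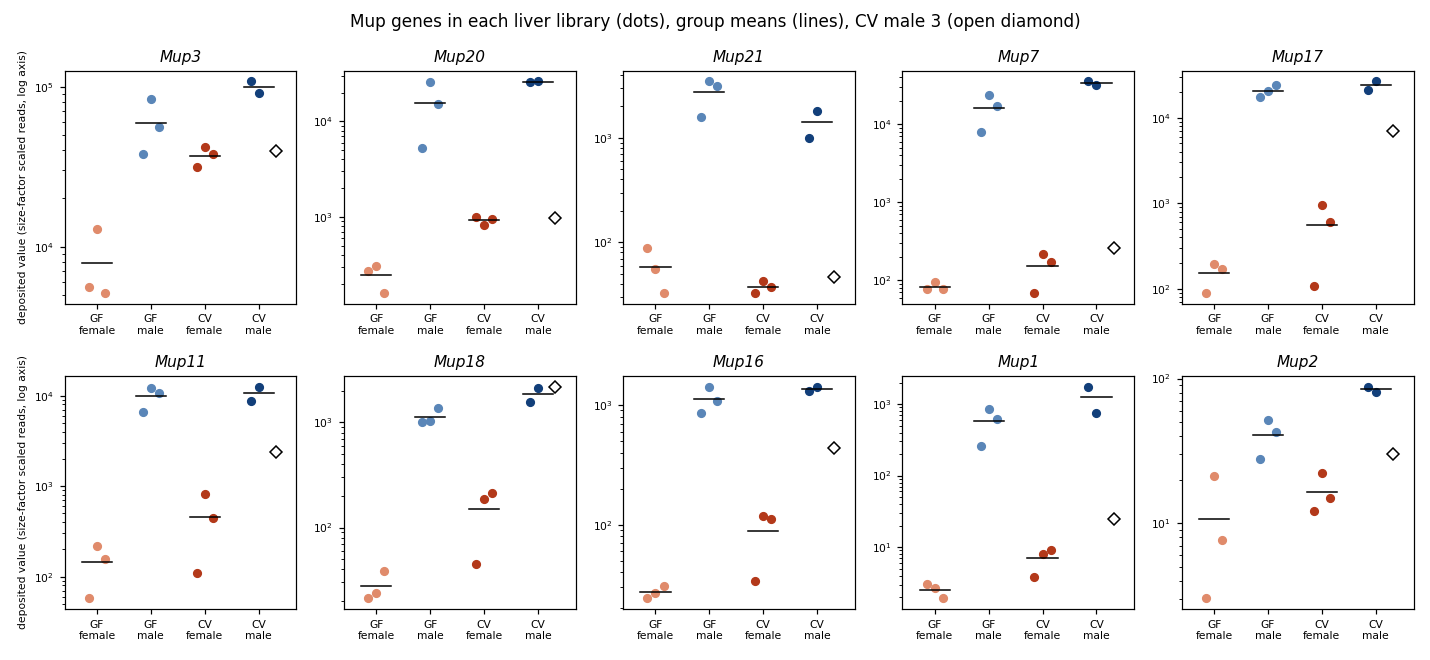
Deposited value (reads scaled by the size factor, log axis) of each of the 10 Mup genes in every library, with dots for libraries, lines for the means of the groups and an open diamond for CV male 3, which is outside the means. Within each condition the dots of males other than CV male 3 lie above those of females in every panel, and the diamond lies at or near the CV females for Mup3, Mup20 and Mup21 but above the males for Mup18.

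Among the near-identical copies, Mup7 and Mup17 had the highest mean values in GF and in CV males. Reads can have been split or lost between the copies, so this order is uncertain. Of the 100-base stretches, 40.6% were particular to Mup17 and 12.9% to Mup7, against 2.66% for Mup2, the lowest of the 10 genes in males. Mup7 was read at 7974, 23435 and 17129 in GF males and 77.0, 95.8 and 76.7 in GF females, and at 35513 and 31907 in CV males and 68.6, 219.7 and 172 in CV females, with CV male 3 at 259. Mup17 was read at 17476, 20261 and 23973 in GF males and 89.1, 197 and 169 in GF females, and at 21279 and 26529 in CV males and 109, 942 and 612 in CV females, with CV male 3 at 6960.2. Both separated males from females without overlap, and CV male 3 lay between the CV females and the CV males for both, near the females for Mup7.

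The other 5 copies showed the same order of the sexes. Mup11 ranged from 6627 to 12608 in males of both conditions and from 57.4 to 822 in females. Mup18 ranged from 1005 to 2128 and from 21.1 to 213, and Mup16 from 852 to 1425 and from 24.2 to 118. The remaining pair, Mup1 and Mup2, had the lowest means of the 10 genes in each group: Mup1 was read at 255 to 1752 in males and 1.92 to 9.03 in females, and Mup2 at 27.8 to 88.0 and 3.02 to 22.2. In CV male 3 the values were 2369 for Mup11, 2193 for Mup18, 436 for Mup16, 24.5 for Mup1 and 30.0 for Mup2.

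Over the 10 genes, every male library lay above every female library for 10 of 10 in GF and for 10 of 10 in CV, which is how they had been chosen. The same held for 10.2% of the 11782 genes with a mean value of at least 10 in GF (3 against 3 libraries) and for 11.2% in CV (2 against 3). The log2 difference of value + 1, male minus female, ran from 2.14 (Mup2) to 7.46 (Mup7) in GF with a median of 5.65, and from 1.43 (Mup3) to 7.93 (Mup7) in CV with a median of 4.88. With CV male 3 kept under its label, the median in CV was 3.79, and all 10 differences remained above 0.

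The order of the 4 groups was shared by most members. For 9 of the 10 genes the means ran from CV males to GF males to CV females to GF females, and for Mup21 from GF males to CV males to GF females to CV females. The male groups lay above the female groups without overlap for each gene, with 1 exception: for Mup3 the lowest GF male (37843) was below the highest CV female (42080.1). CV and GF males were separated without overlap for Mup2, Mup3, Mup7 and Mup18, and CV and GF females for Mup1, Mup3, Mup16, Mup18 and Mup20; the other neighbours overlapped.

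The make-up of the Mup signal differed between the sexes more than between the conditions. Mup3 was 43.4% to 48.7% of the summed value of the 10 genes in GF males and 47.0% and 52.6% in CV males, but 88.4% to 93.2% in GF females and 93.0% to 95.7% in CV females. Mup20 was 6.75% to 15.1% in GF males and 12.7% and 13.4% in CV males, against 2.20% to 4.35% and 1.82% to 3.02% in females. By these values a female liver therefore had mostly Mup3 among these genes, and a male liver had a mixture. The shares carry a limit: 97.1% of the 100-base stretches were particular to Mup3, against 2.66% to 40.6% for the near-identical copies. Reads of the copies can have been lost where those of Mup3 were kept, so the percentages of Mup3 can be too high. Mup21 was 2.01% to 2.40% of the total in GF males and 0.491% and 0.924% in CV males, and 0.405% to 1.40% in GF females and 0.0927% to 0.0995% in CV females, so its share was lower in CV without overlap in both sexes. CV male 3 had 74.8% Mup3, 13.2% Mup17 and 4.17% Mup18, the last above all the other libraries, with 0.492% Mup7.

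**Figure D2:**
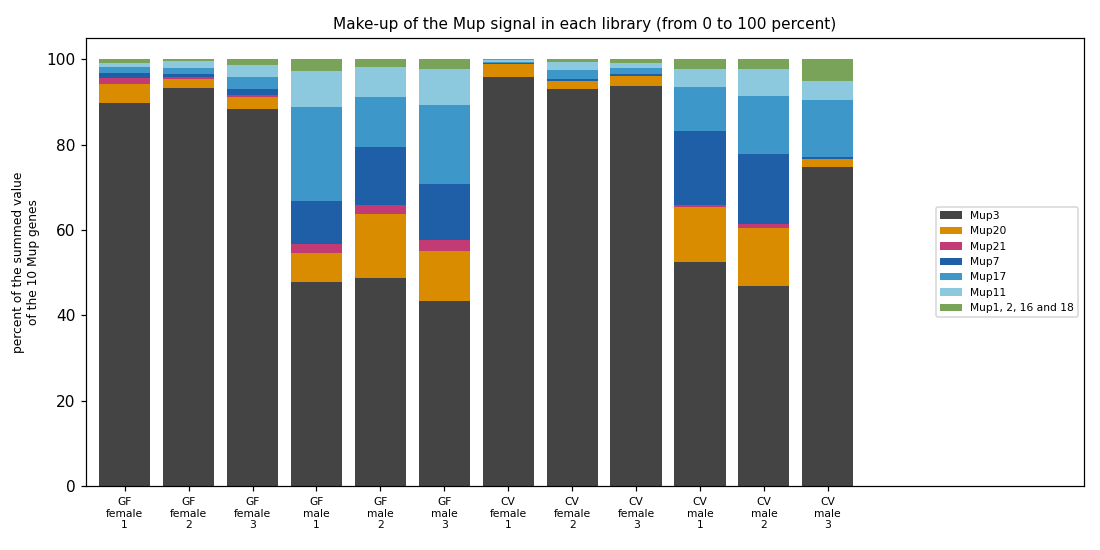
Stacked bars give the percentage of the summed value of the 10 Mup genes that each gene or group of genes held in each library. Mup3 fills 88.4% to 95.7% of the female bars and 43.4% to 52.6% of the male bars other than CV male 3, where it fills 74.8%. Reads of the near-identical copies can have been lost, so the share of Mup3 can be too high.

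As a share of all reads the 10 genes took 0.0503% to 0.0866% in GF females (in GF female 2, the highest, with a 95% Wilson interval from 0.0843% to 0.0890%, which covers counting error only), 0.804% to 1.66% in GF males, 0.512% to 0.627% in CV females, 2.64% and 2.69% in the 2 CV males and 0.652% in CV male 3. These shares move with the abundant loci. Of the reads outside those loci, the 10 genes took 0.180% to 0.337% in GF females, 1.90% to 3.18% in GF males, 0.553% to 0.691% in CV females, 2.85% and 3.54% in CV males and 0.872% in CV male 3.

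Whether Mup RNA differed between CV and GF livers was asked within each sex. This comparison is other than the male against female values that chose the genes, although its earlier results were known too. Housing changed together with the microbes, so their parts cannot be told apart. In females, limma called 7 of the 10 genes higher in CV and 0 lower (Benjamini-Hochberg adjusted p under 0.05 over the 11782 genes), where 30.0% of all genes tested rose and 26.1% fell. One of the 7 was Mup1, which passed the filter on low values only through the males: its mean value over the 6 females was 4.75, and the GF females held 2, 1 and 1 reads of it and the CV females 9, 12 and 15. edgeR and DESeq2 each called the other 6 without Mup1. A limma fit of the female groups alone called 4 (Mup3, Mup16, Mup18 and Mup20). Mup1, Mup11, Mup16, Mup17 and Mup18 are near-identical copies that can share reads, so their calls are not separate results. The sum of the 7 copies was 275 to 583 in GF females and 381 to 2320.2 in CV females. These ranges overlapped, and the sum was not tested. Mup10, outside the sum, did not overlap, at 1185 to 2836 in GF females and 6485 to 13416 in CV females. Among the 10 genes Mup3 rose most, by a log2 difference of 2.36 ± 0.47 (SE, adjusted p = 0.00054), followed by Mup18 (2.14 ± 0.44, adjusted p = 0.00064) and Mup20 (1.96 ± 0.43, adjusted p = 0.0011). Mup16 (1.47 ± 0.37, adjusted p = 0.0032), Mup17 (1.46 ± 0.55, adjusted p = 0.031) and Mup11 (1.44 ± 0.57, adjusted p = 0.039) rose as well, and Mup1 had 1.11 ± 0.44 (adjusted p = 0.039) on these few reads. Mup2 (0.89 ± 0.51), Mup7 (0.73 ± 0.40) and Mup21 (-0.52 ± 0.36) did not pass, with adjusted p of 0.14, 0.13 and 0.23. The median over the 10 genes was 1.45 and over all genes 0.08.

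The libraries differed in how evenly they carried these differences. For Mup3 and Mup20 the lowest CV female was 2.45-fold and 2.72-fold above the highest GF female. For Mup17 and Mup11 CV female 1, at 109 for both genes, lay within the GF females (89.1 to 197 and 57.4 to 215), and the CV values came from CV females 2 and 3. CV females lay above GF females without overlap for 5 of the 10 genes, Mup1 among them, and for 34.0% of all genes tested.

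In males, 0 of the 10 genes passed (limma), where 12.1% of all genes rose and 13.1% fell. At an unadjusted p under 0.05 there were 4 genes (Mup1, Mup7, Mup20 and, with a lower value in CV, Mup21), against 39.0% of all genes. edgeR called Mup1 alone and DESeq2 called 0. The differences ran from -0.94 ± 0.40 (SE) for Mup21 to 1.19 ± 0.45 for Mup7 (adjusted p = 0.062), with a median of 0.76 against 0.06 over all genes. Mup3 had 0.82 ± 0.53 and Mup20 had 1.02 ± 0.48. CV males lay above GF males without overlap for 4 of the 10 genes, against 26.3% of all genes. GF males were themselves spread widely, as Mup20 shows with 5328 in GF male 1 and 26036 in GF male 2, and the CV group held only 2 libraries.

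The effect of condition was not shown to differ between the sexes. In the test of the interaction, males minus females, 0 of the 10 genes passed (limma, edgeR and DESeq2), and 0.034% of all genes passed in limma. The lowest value was that of Mup3 (-1.54 ± 0.71, unadjusted p = 0.043, adjusted p = 0.62 in limma) and the next that of Mup18 (-1.43 ± 0.65, unadjusted p = 0.043, adjusted p = 0.62). These were the 2 genes under an unadjusted p of 0.05, against 7.95% of all genes. The highest was Mup7 (0.47 ± 0.60).

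**Figure D3:**
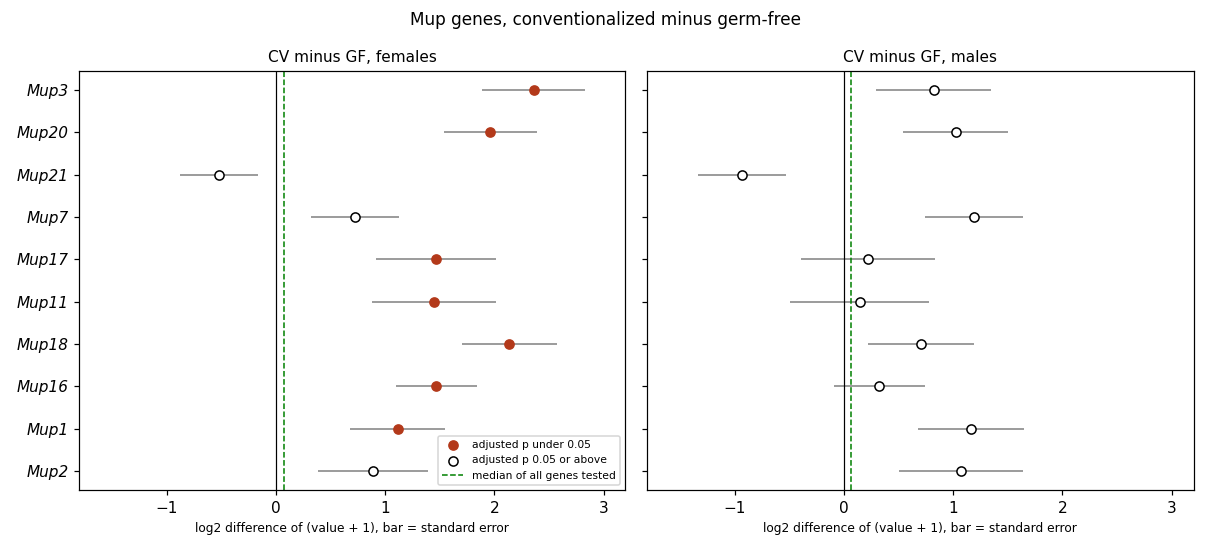
Log2 difference of value + 1, CV minus GF, for each gene in females and in males, with the standard error as a bar, filled symbols for an adjusted p under 0.05 and a dashed line at the median of all genes tested. In females 7 symbols are filled, Mup1 on few reads, and all lie at 1.11 or above, in males none is filled, and Mup21 is below 0 in both panels.

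These counts moved with the scaling of the libraries. With values scaled to all reads, which moved the median of all genes in females by 0.79 on the log2 scale, 9 genes rose in females and 4 in males (Mup1, Mup3, Mup7 and Mup20). With values scaled to the reads outside the abundant loci, which moved it by -0.81, Mup3, Mup18 and Mup20 rose in females and Mup21 fell in both sexes. With the share of mitochondrial ribosomal RNA in the model, 0 of the 10 genes and 0 of all genes passed in females, but 94.9% of the spread of that share was between groups rather than within them, so the share and the condition cannot be told apart.

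Other transcripts of hepatocytes moved in the same direction in females, and their part in the Mup result was not tested. Of the 7 hepatocyte markers, 5 rose in CV females and 0 fell (median 1.47), against 30.0% and 26.1% of all genes tested. Apoa1, an apolipoprotein, was among the 5, at 2.20 ± 0.62 (adjusted p = 0.0065, limma), while Alb, the gene of albumin, had 1.47 ± 0.65 (adjusted p = 0.064). The blood markers were lower: 4 of the 5 tested fell and 0 rose (median -3.05). In CV males 0 markers of either list were called (medians 0.52 and -1.62). Of 10 markers of other liver cells, 1 rose and 2 fell in CV females, and 1 rose and 1 fell in CV males. The summed value of the hepatocyte markers was 97112 to 279585 in GF females and 442444 to 601883 in CV females, without overlap, and 190608 to 444558 and 368907 to 444275 in GF and CV males. In whole tissue, fewer cells of a type and less RNA per cell cannot be told apart.

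Set against those markers, a ratio chosen after the values had been seen, GF and CV females overlapped for the near-identical copies and Mup20 but not for Mup3 and Mup21. The near-identical sum was 0.130%, 0.208% and 0.495% of the hepatocyte marker sum in GF females and 0.0860%, 0.385% and 0.268% in CV females, and Mup20 was 0.128%, 0.108% and 0.164% against 0.225%, 0.137% and 0.163%, with overlap in both cases. Mup3 kept a separation in females, at 2.65%, 4.60% and 5.26% in GF and 7.13%, 6.99% and 6.42% in CV. Mup21 was lower in CV without overlap in both sexes, at 0.0200% to 0.0413% in GF females and 0.00636% to 0.00742% in CV females, and at 0.782% to 1.26% in GF males and 0.227% and 0.489% in CV males. The sexes remained apart by this measure, for the near-identical sum at 13.3% to 22.4% in GF males and 15.8% and 20.4% in CV males, with CV male 3 at 2.38%.

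**Figure D4:**
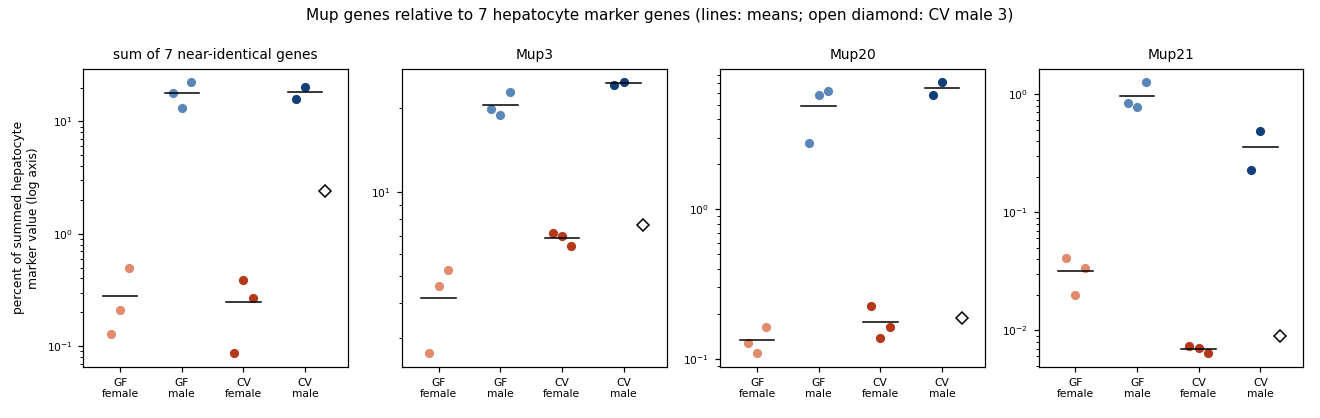
The sum of the 7 near-identical copies, Mup3, Mup20 and Mup21 in each library as a percentage of the summed value of 7 hepatocyte markers (log axis), with lines at the group means and an open diamond for CV male 3. For Mup3 the CV females (6.42% to 7.13%) lie above the GF females (2.65% to 5.26%), for Mup21 below them, and for the other 2 panels the female groups overlap.

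CV male 3 did not take 1 place across the family. Placed on the log2 scale between the mean of the CV females (0%) and the mean of CV males 1 and 2 (100%), it stood at 1.26% for Mup20, 5.82% for Mup21, 6.61% for Mup3 and 11.5% for Mup7. It stood at 24.2% for Mup1, 37.3% for Mup2, 56.5% for Mup11, 60.3% for Mup16, 70.0% for Mup17 and 107% for Mup18. Female-like and male-like values thus stood side by side in 1 liver library, also within the group of near-identical copies. Its Mup7 value was 130-fold below the mean of the CV males, while its Mup18 value was above both of them. Mup7 and Mup18 are both copies with few stretches of their own (12.9% of the 100-base stretches of each). Over 12 other male-biased liver genes, listed with earlier results known, it stood between -45.7% and 13.8% (median -15.7%).

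**Figure D5:**
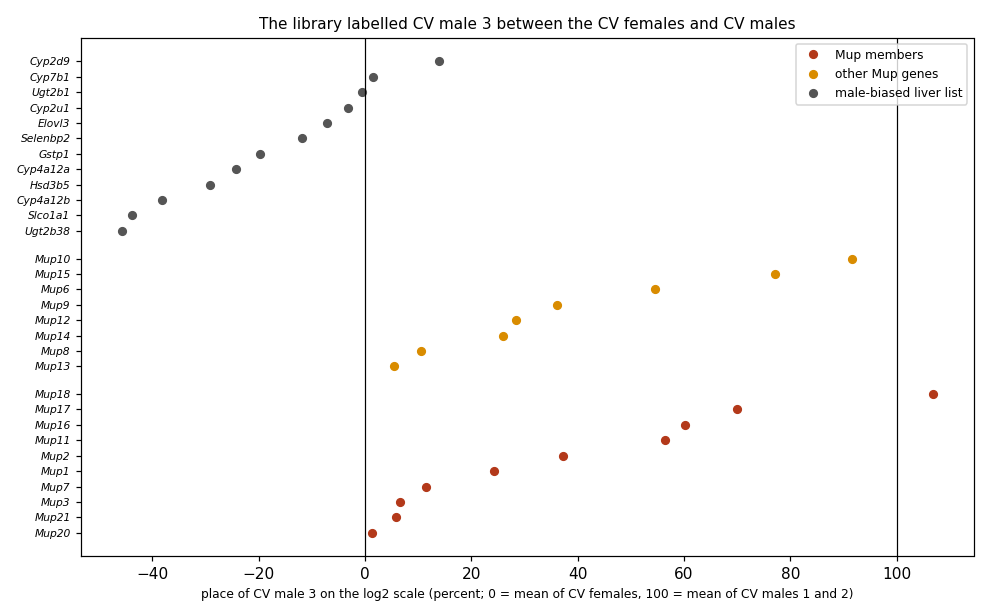
Place of CV male 3 for each gene on the log2 scale of value + 1, where 0 is the mean of the CV females and 100 the mean of CV males 1 and 2, for the 10 Mup members, the 8 other Mup genes tested and 12 male-biased liver genes. The male-biased genes lie from -45.7% to 13.8%, and the Mup members from 1.26% to 107%.

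Of 12 listed genes of growth hormone signalling, which hold its receptor and mediators as well as some of its targets, 2 rose and 4 fell in CV females, against 30.0% and 26.1% of all genes tested. In CV males 0 rose and 3 fell, against 12.1% and 13.1%. Ghr, the growth hormone receptor, rose by 0.88 ± 0.29 in females (adjusted p = 0.016, limma), and Igfals, a carrier subunit of circulating IGF1, by 1.88 ± 0.44 (adjusted p = 0.0019). Socs2, an inhibitor of the receptor that is itself induced by growth hormone, fell by 2.31 on the log2 scale in females (adjusted p = 0.0018) and by 2.89 in males (adjusted p = 0.0043). Cux2, a repressor of male-biased genes that is expressed mainly in female liver, was read at 374 to 533 in GF females and 60.6 to 128 in CV females, and at 0 to 7.16 in the males other than CV male 3, where it was 62.7; it fell by 2.22 in females (adjusted p = 0.00072). Stat5b, the main mediator, did not pass (0.37 ± 0.29 in females, adjusted p = 0.29). Of the 11 other listed regulators tested, 2 rose and 2 fell in females. Cebpa, a hepatocyte transcription factor, rose by 1.79 (adjusted p = 8.1e-05).

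Male-biased liver genes outside the family gave 5 of 12 higher and 1 of 12 lower in CV females (median 1.02), against 30.0% and 26.1% of all genes tested, and 0 called in CV males (median 0.55). Female-biased liver genes gave 6 of 12 higher and 1 of 12 lower in CV females (median 1.15). In CV males 0 of these were higher and 2 lower (median -0.80). The rise in CV females was therefore not particular to the male-biased list. Other lipocalins, which share the fold but not the cluster, gave 7 of 9 higher and 1 of 9 lower in females (median 2.42), with Rbp4, the carrier of retinol in plasma, at 2.55 (adjusted p = 7.1e-05, limma).

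By the root mean square difference of centred log2 values over the 12 libraries, the genes outside the family and the sex chromosomes with the pattern most like that of Mup20 were Elovl3, a fatty acid elongase (0.61), Cyp7b1, a steroid hydroxylase (0.81), Hsd3b5, a steroid dehydrogenase (0.88), Nat8f5 (1.00) and Scara5 (1.08), where Mup20 itself had an SD of 2.78 over those libraries. The same search for the near-identical sum gave Elovl3 (1.25), Nat8f5 (1.38), Cyp7b1 (1.41), Hsd3b5 (1.50) and Cyp2d9 (1.64), against an SD of 3.30. The same 4 genes were in both sets, 11430 genes were compared, and the 12 libraries share the split by sex.

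Of the 11 other Mup genes in the table, 8 passed the filter on low values, and Mup4, Mup5 and Mup19 did not, with at most 18 reads in any library. In females Mup9, Mup10, Mup14 and Mup15 rose in CV (limma), where 30.0% of all genes rose. Mup6 and Mup13 were called higher too but passed the filter only through the males, with at most 1 read in each GF female and 5 to 16 reads in each CV female. In males 0 of the 8 were called, and 0 fell in females. Mup10, 98.7% to 99.6% identical to the 7 copies in its coding sequence, was the most abundant of them. It was read at 9421, 17646 and 12587 in GF males and 1185, 2836 and 1194 in GF females, and at 25064 and 22210.4 in CV males and 6485, 13416 and 10499.9 in CV females, with CV male 3 at 21882. It thus resembled Mup3 in its sex ratio (7.60-fold in GF and 2.33-fold in CV by the means), although CV male 3 was near the males for Mup10 and among the females for Mup3. Mup4, known mainly from glands, was at 0 in all 6 GF libraries and had at most 7 reads in the CV libraries. A count of 0 allows up to 3 reads, that is a value of 2.69 to 7.98 in the GF libraries.

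The genes beside the cluster showed smaller differences between the sexes. Of the 3 nearest genes tested before it, E130308A19Rik, Inip and Snx30, males were 0.621-fold to 1.40-fold the females in GF by the means, and of the 3 after it, Slc31a2, Fkbp15 and Slc31a1, 0.934-fold to 1.49-fold; in CV the 6 genes ranged from 0.712-fold to 1.59-fold. Slc31a1, a copper transporter, rose in CV in both sexes (2.40 ± 0.35 in females, adjusted p = 4.0e-05, and 1.51 in males, adjusted p = 0.012, limma), Slc31a2 rose in females (0.86 ± 0.28, adjusted p = 0.016) and E130308A19Rik fell in females (-0.75 ± 0.29, adjusted p = 0.035). Inside the cluster, Gm13775 was higher in males without overlap, 2.79-fold in GF and 4.17-fold in CV by the means. Gm12909, also inside, was 1.46-fold and 1.07-fold higher in males. It fell in CV in females (-2.23, adjusted p = 3.9e-05, limma) and in males (-2.78, adjusted p = 0.00055). The p-values throughout measure the spread between these libraries, 1 per mouse, and which mice were littermates is not given in the labels, so the tests take no account of litters.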

How the data were processed

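Liver RNA of 12 mice was measured, per the labels with stranded poly(A) libraries on an Illumina HiSeq instrument. The deposited table gives 1 normalized signal per gene and library. The submitters' processing notes name HTSeq 0.6.1p1, DESeq2 and GRCm38, and the aligner, the annotation and HTSeq's settings for reads that match several genes are not given in the sources used here. The paper linked to the series describes a brain experiment, so no method was taken from it. Dividing the deposited values by the smallest step of a library gave whole reads for 100% of them, within 0.01 reads, with size factors equal to DESeq2's median of ratios over 12512 genes, so whole reads were recovered for the count tests.

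Groups came from the sample titles. The members, the gene lists and the comparisons were chosen with earlier results of these data known. All 10 members, every other row named Mup and a number, and the genes of the lists could be named. Genes with a mean value of at least 10 (11782 of 41128) were tested with limma 3.58.1 in R 4.3.3 on log2(value + 1), a separate mean for each of the 4 groups, a trended prior variance and Benjamini-Hochberg adjustment over all genes at 0.05. Fold changes on this scale are understated for low genes. CV male 3 was left out of the fit. Alternatives were edgeR 4.0.16 quasi-likelihood and DESeq2 1.42.0 on recovered reads, other scalings, filters and pseudocounts, a replicate block, the mitochondrial ribosomal RNA share as a covariate, the library kept under its label and each library left out. Gene positions and exon lengths are from GENCODE M21 (GRCm38). Coding sequences were the shortest open reading frame of at least 500 bases among a gene's protein-coding transcripts, aligned globally. Depth ranged from 5993619 to 15290835 reads, and intervals and floors of 3 reads cover counting error only, since reads carry no molecular identifiers.

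Replicate numbers were not shown to pair the libraries. Between GF and CV libraries of 1 sex with the same number, deviations from the group means correlated at -0.21 to 0.02. Between males and females of 1 condition they correlated at 0.06 to 0.40 with the same number and at -0.41 to 0.39 with different numbers. Deviations from means of 2 or 3 libraries are tied to each other, so this check cannot exclude pairing.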

Additional observations from a re-analysis of the deposited data

How the results depend on the processing

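Among the 10 Mup genes, Mup3 and Mup18 rose in CV females under every alternative except the covariate. The number of genes called in females was 7 in the main analysis and 4 with no filter, 4 when scaled to reads outside the abundant loci (3 higher, 1 lower), 4 with only the groups of the contrast, 3 with CV male 3 kept under its label and 0 with the mitochondrial ribosomal RNA share as a covariate. In males it was 0, against 1 with a pseudocount of 10 and 4 when scaled to all reads. It was 1 outside the abundant loci, 1 with TMM, 1 with edgeR, 2 with edgeR and no filter, and 1 with CV male 3 kept. Outside the abundant loci, with CV male 3 kept and without GF male 1, the gene called was Mup21, lower in CV. The other calls in males were higher in CV. Leaving out 1 library gave 4 to 8 in females (4 without GF female 1, CV female 2 or CV female 3) and 0 to 3 in males (3 without GF male 2, and 1 without GF male 1, CV male 2 or CV female 1), and 0 to 0 for the interaction, which was 0 under every alternative. Where 1 CV male was left, its spread was taken from the other groups. With the replicate block 7 genes were called in females, 1 (Mup7) in males and 0 for the interaction. The replicate numbers were not shown to pair the mice. The median male minus female difference in CV was 3.79 with CV male 3 kept, against 4.88. The cause of these changes was not tested.

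Whole-table counts also moved: 2974 genes were called in males, against 1781 with no filter and 136 without CV male 1. For the interaction there were 4, against 12 scaled to all reads, 64 with edgeR and no filter, 21 with DESeq2, 0 with no filter, 0 with CV male 3 kept, and 1 to 6 with a library left out. With the covariate, 0 genes were called in either sex and 1 for the interaction. In females the split was 3536 higher and 3071 lower, 5826 and 1136 scaled to all reads, and 1414 and 5388 outside the abundant loci.

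Of 249 values of the 10 genes under the alternatives in females (Mup2 had none at a minimum mean value of 50), 200 kept their direction and side of the threshold, 38 no longer passed, 6 newly passed and 5 turned; of 249 in males the numbers were 219, 0, 18 and 12. Signs turned in females for Mup7 (-0.10 outside the abundant loci, -0.22 with the covariate), Mup1 (-1.89 with the covariate) and Mup21 (0.27 scaled to all reads, 0.93 with the covariate). In males they turned with CV male 3 kept for Mup1 (-0.67), Mup7 (-1.15), Mup11 (-0.57), Mup16 (-0.23), Mup17 (-0.37) and Mup20 (-0.56), outside the abundant loci for Mup11 (-0.29), Mup16 (-0.11) and Mup17 (-0.21), and for Mup1 with the covariate (-0.33). Mup11 in males ran from -0.12 to 0.41 with 1 library left out, and the interaction of Mup7 from -0.030 to 0.80, and it was -1.87 with CV male 3 kept.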
